A study of Mus musculus with 10 samples.

Results

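The genes described are 8 transcription factors of endothelial cells: the SoxF genes Sox7 and Sox17 and the Ets genes Ets1, Ets2, Erg, Fli1, Elk3 and Etv6. They were taken by symbol, and all 8 were found among the 23284 rows of the count table and passed the filter on low counts that left 15323 genes for testing. RNA was measured in 3 sorted cell populations of wild-type C57BL/6 (B6) mice aged 6 to 8 weeks, with no treatment. LN-LEC, the lymphatic endothelial cells (LEC) of lymph nodes (LN), had 4 libraries, and LN-BEC, the blood endothelial cells (BEC) of the same kind of nodes, had 3. D-LEC, the LEC of the diaphragm, also had 3. Nodes were inguinal, axillary, brachial, cervical and mesenteric ones pooled together, and each library came from pooled mice, so that n counts pools of animals and every population is a mixture of the vessel types that its gate took in. Cells were sorted as CD45-negative and CD31-positive, with PDPN on LEC and without it on BEC. These are bulk samples, so that fewer cells expressing a gene and less of its RNA per cell cannot be told apart.

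SoxF proteins bind DNA through an HMG box. Sox18 is known for its part in the early specification of lymphatic endothelium, where it acts on Prox1, and Sox17 for its part in arterial endothelium, while Sox7 acts beside both in developing vessels. Ets proteins share a winged helix-turn-helix domain that reads a GGAA core. Erg and Fli1 are closely related activators that maintain endothelial identity, Ets1 and Ets2 are activated by phosphorylation through ERK, Elk3 is a ternary complex factor that partners serum response factor and represses until it is phosphorylated, and Etv6 is a repressor. Enhancers of many endothelial genes carry sites for both families.

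Libraries held 22429940 to 48906070 counted fragments, at which 3 counts correspond to 0.0613 to 0.134 CPM, counts scaled to the library total. LN-BEC replicate 3 and LN-LEC replicate 4 stood apart from the rest of their populations. Summed markers of LEC were at 272 CPM in LN-BEC replicate 3 against 100 and 150 in the other LN-BEC libraries, and at 4382 to 5355 CPM in LN-LEC. Both libraries were also highest of their populations for a list of 7 epithelial genes that was added after the values were seen, with 68.4 CPM in LN-BEC replicate 3 against 10.6 and 15.7, and 28.6 CPM in LN-LEC replicate 4 against 6.86 to 11.1. Summed immediate early genes, which respond within minutes to handling and other stimuli, were at 2974 CPM in LN-LEC replicate 4 and 1161 to 1493 in the other LN-LEC, at 2990 to 4794 CPM in LN-BEC and at 8753 to 9425 CPM in D-LEC. Pecam1 (CD31) was at mean normalized counts of 31028, 96343 and 31901 in LN-LEC, then LN-BEC, then D-LEC, and Pdpn was at 18853, 622 and 63374. One defining gene of LEC, Ccl21a, was listed at 0 in every library. Ptprc (CD45) was at 40.3, 285 and 14.9 in the same order. A normalized count is a count divided by the library's size factor, and means are given ± SD over libraries.

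Of the Ets genes, 4 lie in neighbouring pairs in the mm9 build. Fli1 (chromosome 9, 32229793 to 32348953, minus strand) and Ets1 (chromosome 9, 32503627 to 32565405, plus strand) are 154.7 kb apart, and Erg (chromosome 16, 95581811 to 95751972, minus strand) and Ets2 (chromosome 16, 95924014 to 95942656, plus strand) are 172.0 kb apart, with 0 other rows of the count table between the genes of either pair. Elk3 lies at 92710161 to 92773904 on the minus strand of chromosome 10, Etv6 at 133985725 to 134220165 on the plus strand of chromosome 6, Sox7 at 64562543 to 64569569 on the plus strand of chromosome 14 and Sox17 at 4481009 to 4486494 on the minus strand of chromosome 1. Counted exons of these genes shared 0 bases with the exons of other rows.

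RefSeq start sites on GRCm38.p6, a later build than that of the counts, gave upstream windows of 250 bases for 4 of the 8 genes, namely Elk3, Erg, Ets2 and Etv6. Of the windows, 3 are printed because their genes separated the lymph node populations from D-LEC, Erg and Etv6 in one direction and Elk3 in the other. For Erg, which has 3 windows, the one with a match is printed. Capitals mark matches to AGGAAG, an Ets sequence with the GGAA core, or to its reverse complement CTTCCT.
Elk3, chr10:93311160-93311409, minus strand: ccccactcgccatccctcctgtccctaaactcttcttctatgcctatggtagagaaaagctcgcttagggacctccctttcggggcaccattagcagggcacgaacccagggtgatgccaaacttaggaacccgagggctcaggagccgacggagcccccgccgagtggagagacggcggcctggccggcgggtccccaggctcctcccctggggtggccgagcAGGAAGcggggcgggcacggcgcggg
Erg, chr16:95459349-95459598, minus strand: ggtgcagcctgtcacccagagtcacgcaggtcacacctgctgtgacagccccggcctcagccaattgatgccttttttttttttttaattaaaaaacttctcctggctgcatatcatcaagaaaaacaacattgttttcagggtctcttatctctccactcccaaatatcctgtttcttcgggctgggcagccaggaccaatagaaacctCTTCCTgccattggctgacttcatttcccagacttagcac
Etv6, chr6:134035450-134035699, plus strand: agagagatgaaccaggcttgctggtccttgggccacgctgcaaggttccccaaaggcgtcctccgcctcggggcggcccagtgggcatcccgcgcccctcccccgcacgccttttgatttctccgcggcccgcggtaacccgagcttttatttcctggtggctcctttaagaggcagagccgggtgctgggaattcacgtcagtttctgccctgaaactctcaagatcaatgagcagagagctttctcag
The Elk3 window held 1 match, the Erg window 1 and the Etv6 window 0. Over all 32851 mouse windows of this length, 29.5% held a match on either strand, and 2 of the 6 windows of the 4 genes did. The Sox sequence ACAAT, searched on both strands and sharing no letters with the Ets matches here, was in 27.7% of all windows and in the printed Erg window only, among these 6. A match describes letters in the window, and binding was not measured.

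Sox17 separated LN-BEC from both lymphatic populations by more than any other of the 8 genes. Its normalized counts, each library in order of replicate, were 3582, 3729 and 3954 in LN-BEC, 37.6, 35.5, 24.9 and 58.5 in LN-LEC, and 15.1, 18.0 and 21.5 in D-LEC. Every LN-BEC library lay far above every lymphatic library, and the lowest LN-LEC library lay just above the highest D-LEC library. The LEC values rest on 22 to 93 counts in LN-LEC and 12 to 26 counts in D-LEC. By edgeR's quasi-likelihood test with Benjamini-Hochberg adjustment over all tested genes, Sox17 was higher in LN-BEC than LN-LEC by a log2 fold change of 6.50 (SE 0.19, adjusted p = 5.7e-11), or 90.3-fold. It was higher in LN-BEC than D-LEC by 7.66 on the log2 scale (SE 0.24, adjusted p = 3.9e-11), or 202-fold. LN-LEC exceeded D-LEC by 1.16 on the log2 scale (SE 0.27, adjusted p = 0.0031), a 2.23-fold difference at a low level.

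The low Sox17 levels of LEC moved between LN-LEC and D-LEC with Flt1 and Nrp1, but not with the other markers of BEC. As a percent of the LN-BEC mean, Sox17 was at 1.04% ± 0.374 (SD, n = 4) in LN-LEC and 0.485% ± 0.0846 (SD, n = 3) in D-LEC. The BEC markers Flt1 and Nrp1, a decoy receptor for VEGF-A and a co-receptor, were at 1.35% and 1.48% in LN-LEC and at 0.417% and 0.233% in D-LEC. Vwf, Notch4, Cd34 and Emcn were at 1.997%, 2.27%, 1.62% and 3.77% in LN-LEC, and at 2.59%, 4.82%, 4.23% and 36.9% in D-LEC. Of these 6 markers, edgeR called 2 higher and 3 lower in LN-LEC against D-LEC, beside 24.1% higher and 21.7% lower over all genes. Within LN-LEC, replicate 4 had the highest percent for Sox17 (1.56%), Flt1 (1.74%) and Vwf (3.01%), whereas Nrp1 was highest in replicate 1 (1.94%, and 1.74% in replicate 4). Leaving that library out, LN-LEC minus D-LEC was 0.82 for Sox17 on the log2 scale by edgeR (adjusted p = 0.0060). The summed BEC list was at 68.2 to 112 CPM for LN-LEC, 3876 to 4416 CPM for LN-BEC and 275 to 353 CPM for D-LEC, with 0 of its 6 genes at 3 counts or fewer throughout a population. In D-LEC that sum was mostly Emcn and Cd34, at mean normalized counts of 6346 and 2349. The part of RNA from BEC in the Sox17 level of LN-LEC was not tested. Sox7, Ets2 and Fli1 were at other levels: in LN-LEC they stood at 48.9%, 37.4% and 64.6% of the LN-BEC mean, and in D-LEC at 50.03%, 49.99% and 61.8%.

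**Figure D1:**
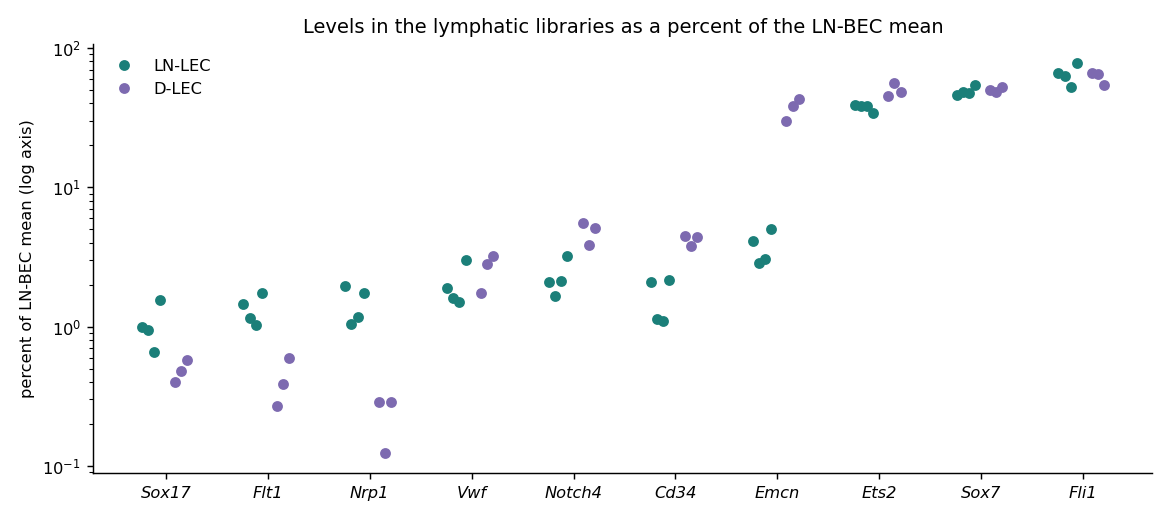
Level in each lymphatic library (points, LN-LEC with n = 4 and D-LEC with n = 3) as a percent of the LN-BEC mean, on a log axis, for Sox17, 6 BEC marker genes, Ets2, Sox7 and Fli1. Sox17 has means of 1.04% in LN-LEC and 0.485% in D-LEC beside 1.35% and 0.417% for Flt1, and the right-hand genes lie at 34.1% or above in LN-LEC.

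Sox7 was present in all 3 populations and was about 2-fold higher in LN-BEC. Normalized counts were 7983, 7177 and 7431 in LN-BEC, 3484, 3608, 3573 and 4063 in LN-LEC, and 3732, 3648 and 3922 in D-LEC. The LN-BEC libraries did not overlap with either lymphatic population, and the lymphatic populations overlapped each other. The log2 fold change was 1.02 (SE 0.080, edgeR adjusted p = 2.1e-07) from LN-LEC to LN-BEC and 1.005 (SE 0.087, edgeR adjusted p = 3.9e-07) from D-LEC to LN-BEC. Between LN-LEC and D-LEC it was −0.01 (SE 0.081, edgeR adjusted p = 0.92). The third SoxF gene, Sox18, was instead low in LN-LEC only, with mean normalized counts of 4177 ± 379 (SD, n = 4) for LN-LEC, 10872 ± 539.6 (SD, n = 3) for LN-BEC and 10394 ± 1423 (SD, n = 3) for D-LEC. Its log2 fold change was 1.36 (SE 0.10) between LN-BEC and LN-LEC, with an edgeR adjusted p of 1.2e-07. LN-LEC were below D-LEC by a log2 fold change of −1.29 (SE 0.10, edgeR adjusted p = 1.8e-07), and LN-BEC minus D-LEC was 0.07 (SE 0.11, edgeR adjusted p = 0.61).

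Per length, Sox18 was the most abundant SoxF gene in each population. FPKM, the fragments scaled by gene length and library total, of the 3 SoxF genes summed to 128 ± 7.81 (SD, n = 4) for LN-LEC, 302 ± 32.3 (SD, n = 3) for LN-BEC and 254 ± 31.1 (SD, n = 3) for D-LEC. Sox18 held 69.3%, 65.7% and 84.6% of that sum in LN-LEC, then LN-BEC, then D-LEC. Sox7 held 30.4% ± 2.12, 22.6% ± 1.42 and 15.4% ± 2.02 in the same order, with no overlap between the populations. Sox17 held 11.8% ± 0.839 in LN-BEC, 0.335% ± 0.109 in LN-LEC and 0.0784% ± 0.0215 in D-LEC. The ratio of Sox17 to Sox7 per length was 0.522 ± 0.0470 in LN-BEC, 0.0110 ± 0.00320 in LN-LEC and 0.00504 ± 0.000749 in D-LEC.

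**Figure D2:**
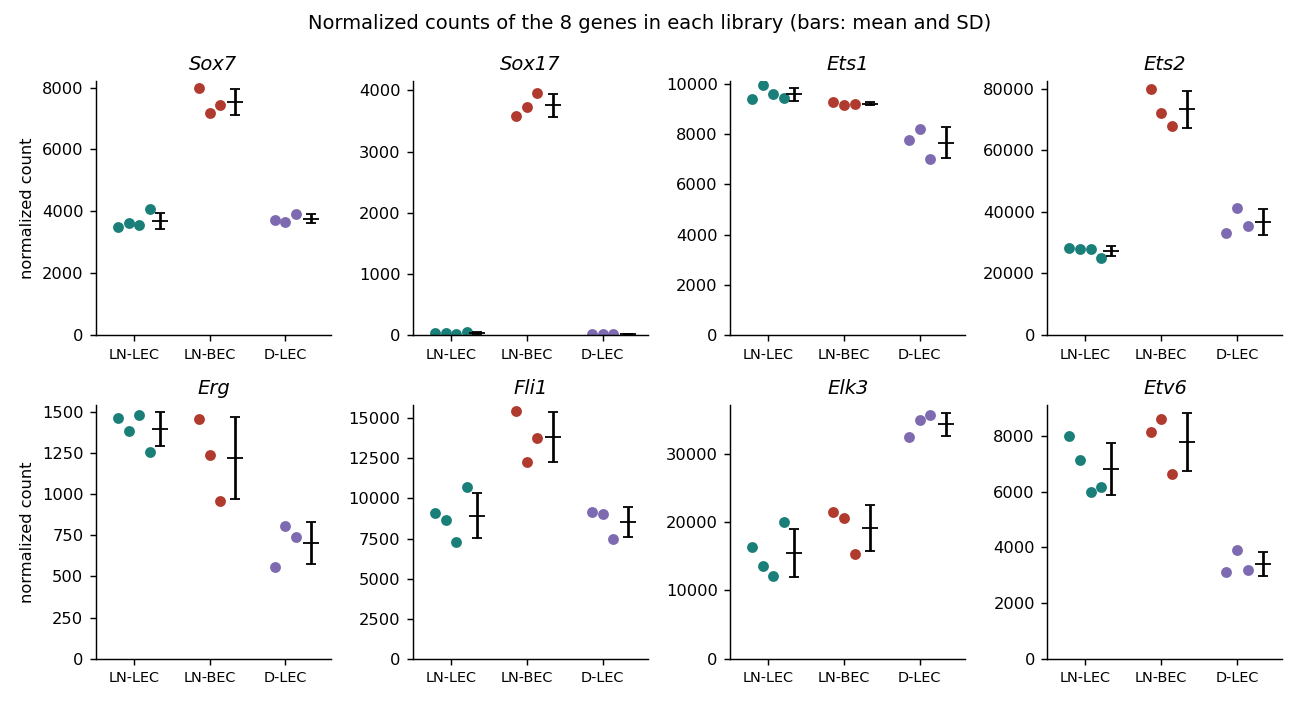
Normalized count of each of the 8 genes (vertical axes, starting at 0) in the LN-LEC (n = 4), LN-BEC (n = 3) and D-LEC (n = 3) libraries. Points are libraries in order of replicate and bars are mean and SD. LN-BEC stand above both LEC populations for Sox7, Sox17, Ets2 and Fli1, and D-LEC stand apart for Ets1, Erg, Elk3 and Etv6.

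Ets2 had the highest FPKM of the 6 Ets genes in every population. Its normalized counts were 79718, 72045 and 68007 in LN-BEC, 28372, 28015, 28095 and 24971 in LN-LEC, and 33229, 41381 and 35252 in D-LEC. The 3 populations did not overlap and stood in the order LN-BEC, D-LEC, LN-LEC. LN-BEC exceeded LN-LEC by 1.41 on the log2 scale (SE 0.10, edgeR adjusted p = 9.7e-08) and D-LEC by 1.005 (SE 0.11, edgeR adjusted p = 4.5e-06). LN-LEC were below D-LEC by a log2 fold change of −0.40 (SE 0.10, edgeR adjusted p = 0.0056). Ets2 FPKM were 265 ± 24.2 (SD, n = 4) for LN-LEC, 610.5 ± 93.1 (SD, n = 3) for LN-BEC and 345 ± 33.4 (SD, n = 3) for D-LEC.

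Ets1, its paralog, differed by at most 0.34 on the log2 scale in the 3 comparisons. Normalized counts were 9378, 9958, 9575 and 9416 for LN-LEC, 9271, 9158 and 9201 for LN-BEC and 7753, 8215 and 6998 for D-LEC. The D-LEC libraries all lay below the node libraries, and the LN-LEC and LN-BEC libraries lay close together without overlapping. The log2 fold change of LN-BEC minus LN-LEC was −0.07 (SE 0.077, edgeR adjusted p = 0.50). Ets1 was higher in LN-LEC than D-LEC by 0.34 on the log2 scale (SE 0.077, edgeR adjusted p = 0.0023), and in LN-BEC than in D-LEC by 0.27 (SE 0.082, edgeR adjusted p = 0.014). Without D-LEC replicate 3, the lowest library, the last difference was 0.21 (SE 0.087, edgeR adjusted p = 0.066). Per length, the ratio of Ets2 to Ets1 was 4.06 ± 0.230 in LN-LEC, 6.81 ± 0.618 in D-LEC and 11.3 ± 0.865 in LN-BEC, with no overlap between populations.

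Fli1 and Erg, closely related to each other, differed in which population was apart. Fli1 was at normalized counts of 15432, 12259 and 13791 in LN-BEC, 9085, 8671, 7254 and 10699.6 in LN-LEC, and 9128, 9023 and 7472 in D-LEC. Every LN-BEC library was above every LEC library, and the LEC populations overlapped. Fli1 was higher in LN-BEC than LN-LEC by 0.62 on the log2 scale (SE 0.13, edgeR adjusted p = 0.0013), and over D-LEC by 0.70 (SE 0.14, edgeR adjusted p = 7.4e-04), while LN-LEC minus D-LEC was 0.09 (SE 0.13, edgeR adjusted p = 0.61).

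Erg was at 1459.6, 1384, 1477 and 1255 for LN-LEC, 1453, 1239 and 958 for LN-BEC and 559, 807 and 739 for D-LEC. The populations of the node overlapped, and each D-LEC library lay below all of them. Erg was higher in LN-LEC than D-LEC by 1.01 on the log2 scale (SE 0.15, edgeR adjusted p = 1.1e-04). The difference of LN-BEC from D-LEC was 0.80 (SE 0.16, edgeR adjusted p = 0.0010), and that from LN-LEC was −0.21 (SE 0.15, edgeR adjusted p = 0.30). Per length Erg was the least abundant of the 6 Ets genes, at FPKM of 21.7 ± 2.24 for LN-LEC, 16.4 ± 4.46 for LN-BEC and 10.6 ± 1.79 for D-LEC. Its counted exons covered 2214 bases, against 3481 bases in the GENCODE annotation of the same build, so its FPKM depends on the gene model. The same comparison gave 5060 and 6422 bases for Ets1, and 3556 and 4710 bases for Ets2.

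Etv6 and Elk3 separated the lymph node from the diaphragm in opposite directions. Etv6 was at normalized counts of 8004, 7143, 5991 and 6177 for LN-LEC, 8138, 8606 and 6621 for LN-BEC and 3107, 3899 and 3184 for D-LEC. It stood higher in LN-LEC than D-LEC by 1.03 on the log2 scale (SE 0.13, edgeR adjusted p = 2.0e-05) and in LN-BEC than in D-LEC by 1.20 (SE 0.14, edgeR adjusted p = 6.5e-06). The node populations overlapped for Etv6, with LN-BEC minus LN-LEC at 0.18 (SE 0.13, edgeR adjusted p = 0.31).

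Elk3 was at 32439, 34899 and 35610.4 in D-LEC, 21502, 20531 and 15295 in LN-BEC, and 16421, 13565, 12089.8 and 20062 in LN-LEC. All D-LEC libraries lay above all node libraries, which overlapped. It was lower in LN-LEC than D-LEC by a log2 fold change of −1.12 (SE 0.16, edgeR adjusted p = 1.0e-04) and lower in LN-BEC than D-LEC by −0.84 (SE 0.18, edgeR adjusted p = 0.0018). LN-BEC minus LN-LEC was 0.28 (SE 0.16, edgeR adjusted p = 0.20), and LN-LEC replicate 4 was the highest and LN-BEC replicate 3 the lowest library of its population. Without LN-LEC replicate 4 this difference was 0.43 (SE 0.14, edgeR adjusted p = 0.026), and without both libraries it was 0.57 (SE 0.12, edgeR adjusted p = 0.0021). Of 12 immediate early genes, 11 were called higher in D-LEC over LN-LEC (21.7% of all genes) and 4 over LN-BEC (22.5% of all genes), or 10 over LN-BEC without LN-BEC replicate 3 and LN-LEC replicate 4. Ier3 was called the other way, with 0.47 for LN-LEC and 1.24 for LN-BEC over D-LEC on the log2 scale. Their part in the Elk3 difference was not tested. Of 4299 windows of 50 bases in Elk3 transcripts of GENCODE, 271 also lay in transcripts of Cdk17, which runs toward Elk3 on the other strand, and strand was ignored in counting. Cdk17 was at mean normalized counts of 7555 for LN-LEC, 11557 for LN-BEC and 12782 for D-LEC. Per length, the ratio of Elk3 to Etv6 was 13.3 ± 1.49 in D-LEC, 3.01 ± 0.826 in LN-LEC and 3.19 ± 0.227 in LN-BEC.

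**Figure D3:**
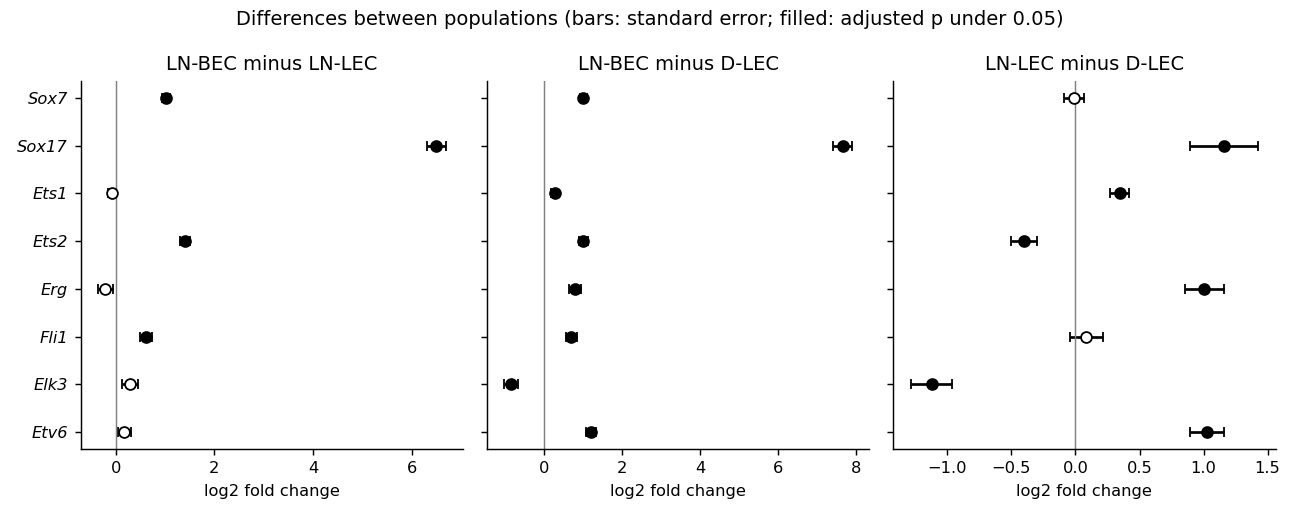
Log2 fold change (horizontal axes, with different ranges) of the 8 genes in the 3 comparisons, fitted with edgeR. Bars are standard errors and filled points have an adjusted p under 0.05. Sox17 reaches 6.50 and 7.66 over the LEC populations, and Elk3 is the only one of the 8 below 0 in LN-BEC minus D-LEC, at −0.84.

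Counted over the comparisons, 4 of the 8 genes were called in LN-BEC against LN-LEC, all higher in LN-BEC, against 38.2% of all tested genes called in either direction, 18.4% called higher in LN-BEC and 19.8% called higher in LN-LEC. Libraries did not overlap for 5 of the 8, against 44.9% of all genes. Between LN-BEC and D-LEC 8 of 8 were called, 7 higher in LN-BEC and Elk3 higher in D-LEC, where 48.1% of all genes were called, 25.6% higher in LN-BEC and 22.5% higher in D-LEC, and the libraries of all 8 did not overlap (56.1% of all genes). Between LN-LEC and D-LEC 6 of 8 were called, with Sox17, Ets1, Erg and Etv6 higher in LN-LEC and Ets2 and Elk3 higher in D-LEC, where 45.8% of all genes were called, 24.1% and 21.7% in those directions. Libraries of 6 of 8 did not overlap there, against 50% of all genes. Median log2 fold changes of the 8 genes were 0.45, 0.90 and 0.21 in the 3 comparisons, beside 0.01, 0.05 and 0.03 over all tested genes. The comparisons share libraries and are not independent of each other.

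As parts of the summed FPKM of the 6 Ets genes, Ets2 held 61.8% ± 0.553 in LN-BEC, 42.9% ± 4.11 in LN-LEC and 43.5% ± 1.93 in D-LEC. Elk3 held 34.4% ± 2.09 in D-LEC, while LN-LEC had 20.2% ± 3.67 and LN-BEC 13.5% ± 1.51. In LN-LEC the shares of Ets1 (10.5% ± 0.750), Etv6 (6.85% ± 0.791) and Erg (3.51% ± 0.393) were above those of every library of the other populations, where the means were 5.48% and 6.41% for Ets1, 4.22% and 2.59% for Etv6, and 1.64% and 1.34% for Erg, in LN-BEC and D-LEC. Fli1 held 15.996%, 13.4% and 11.7% in LN-LEC, then LN-BEC, then D-LEC, with overlap between neighbours in that order. The summed FPKM was 618 ± 22.8 (SD, n = 4) for LN-LEC, 989 ± 158 (SD, n = 3) for LN-BEC and 790.5 ± 41.1 (SD, n = 3) for D-LEC.

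**Figure D4:**
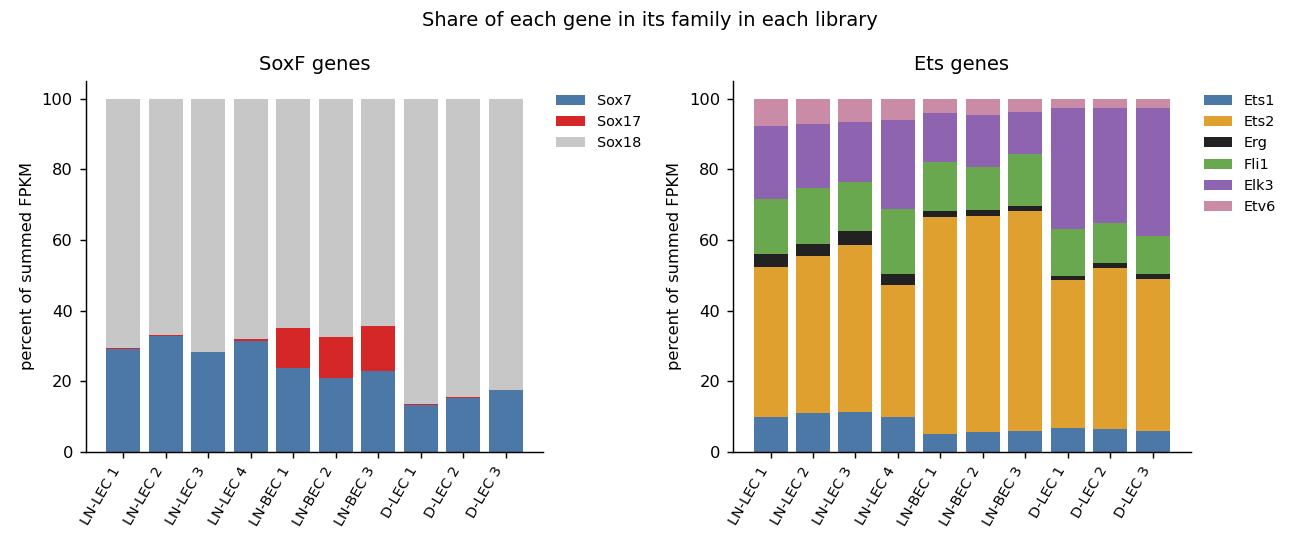
Percent of summed FPKM (vertical axes) held by each SoxF gene (left) and each of the 6 Ets genes (right) in every library; each bar is 1 library and adds to the whole. Sox17 takes a visible part in LN-BEC only, at 11.8%, Ets2 takes 61.8% of the Ets sum in LN-BEC, and Elk3 takes 34.4% in D-LEC.

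Among the other 20 Ets genes, 19 were tested and 14 reached a mean normalized count of 100 in a population. In LN-BEC against LN-LEC 4 were called higher and 2 lower, in LN-BEC against D-LEC 9 higher and 3 lower, and in LN-LEC against D-LEC 6 higher and 4 lower, with median log2 fold changes of 0.20, 0.90 and 0.28. Those called were 31.6%, 63.2% and 52.6% of the tested genes of the list, beside 38.2%, 48.1% and 45.8% of all genes. Spib, a factor of B cells and plasmacytoid dendritic cells, was at 2740.2, 2837, 2621 and 1781 for LN-LEC, 114, 97.7 and 211 for LN-BEC and 3.78, 5.01 and 1.65 for D-LEC. It stood higher in LN-LEC than D-LEC by 9.51 on the log2 scale (SE 0.45, edgeR adjusted p = 5.1e-08) and LN-BEC minus LN-LEC was −4.17 (SE 0.29, edgeR adjusted p = 1.1e-06). The summed lymphocyte list, beside it, was at 22.7 to 29.0 CPM for LN-LEC, 31.6 to 58.0 CPM for LN-BEC and 58.5 to 80.9 CPM for D-LEC. Without Cd2 it was at 22.3 to 28.5 CPM for LN-LEC, 28.5 to 53.9 CPM for LN-BEC and 4.47 to 7.49 CPM for D-LEC. In LN-LEC against D-LEC 5 of its 13 genes were called higher and 1 lower, beside 24.1% and 21.7% of all genes. The share called was 46.2%, near the 45.8% of all genes. Cd79b, a part of the B cell receptor, was at means of 367 and 9.78, with a log2 fold change of 5.36. The lymphocyte sum without Cd2 was thus higher in LN-LEC than D-LEC, as Spib was, and its part in the Spib level was not tested. In D-LEC the whole lymphocyte sum was mostly Cd2, at a mean of 1807 normalized counts. There, 4 of the 13 genes (Cd3d, Cd3g, Cd8a and Cd8b1) were at 3 counts or fewer in each D-LEC library.

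Spic, a relative of Spib known from red pulp macrophages, was at 207 to 327 for LN-LEC, 167 to 198 for LN-BEC and at most 4.01 for D-LEC. Its log2 fold change of LN-LEC minus D-LEC was 7.49 (SE 0.51, edgeR adjusted p = 4.7e-08). Myeloid markers summed to 15.7 to 20.5 CPM for LN-LEC, 19.4 to 27.2 CPM for LN-BEC and 48.2 to 59.0 CPM for D-LEC. Most of the D-LEC sum was Fcer1g and Cd68, at mean normalized counts of 938 and 451. Tyrobp went the other way, at 72.7 for LN-LEC and 112 for LN-BEC against 14.1 for D-LEC. It was called over D-LEC at 2.42 and 3.03 on the log2 scale. Of the 8 genes, 1 was called higher and 2 lower for each node population against D-LEC. All genes gave 24.1% and 21.7% for LN-LEC, and 25.6% and 22.5% for LN-BEC. The part of myeloid RNA in the Spic level was not tested. Etv5, which is induced by receptor tyrosine kinase signalling, followed the order of Ets2, with means of 2997 in LN-BEC, 1615 in D-LEC and 753 in LN-LEC, and was called in each comparison at log2 fold changes of 1.98, 0.90 and −1.08. Elf1 was highest in LN-BEC, 0.68 over LN-LEC (SE 0.085, edgeR adjusted p = 2.1e-05) and 1.4 over D-LEC (SE 0.094, edgeR adjusted p = 2.9e-08) on the log2 scale. Elf2, Elf4, Elk1, Elk4, Erf, Etv3 and Gabpa had smaller differences, between −0.62 and 0.49 on the log2 scale. Of these 21 differences 6 were called, beside 38.2%, 48.1% and 45.8% of all genes in LN-BEC against LN-LEC, LN-BEC against D-LEC and LN-LEC against D-LEC.

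Ehf, Elf5 and Etv1, Ets genes with roles in epithelia or other non-endothelial cells, were high in the libraries that stood apart. Ehf was at 904 in LN-LEC replicate 4 and at 105 to 162 in the other LN-LEC, at 802 in LN-BEC replicate 3 and at 124 and 214 in the other LN-BEC, and at most 1 count per library in D-LEC. Etv1 was at 1560.3 in LN-LEC replicate 4 against 226 to 441 in the others, and at 3048 in LN-BEC replicate 3 against 574 and 911. Elf5 was at 145 and 268 in the same libraries, against 15.2 to 64.0 in the others of the node. With both libraries left out, an alternative added after the values were seen, Ehf was still called over D-LEC in LN-LEC and LN-BEC (edgeR adjusted p = 3.7e-08 and 2.6e-08). With all libraries and against a floor of 3 counts per library, Ehf was at least 86.6-fold higher in LN-LEC and at least 100.5-fold higher in LN-BEC than D-LEC. Without LN-LEC replicate 4 and LN-BEC replicate 3 these bounds were 35.8-fold and 44.7-fold. Without both libraries Etv1 was called higher in LN-BEC than LN-LEC by 1.19 (SE 0.34, edgeR adjusted p = 0.027), and over D-LEC by 0.99 (SE 0.34, edgeR adjusted p = 0.042), where with all libraries the log2 fold changes were 1.21 and 2.03 and the adjusted p was 0.30 and 0.11. The summed epithelial list was high with these 3 Ets genes in LN-BEC replicate 3 and LN-LEC replicate 4. Between node and diaphragm the sum overlapped, at 4.47 to 10.9 CPM in D-LEC and 6.86 to 11.1 CPM in the other LN-LEC. The other LN-BEC were at 10.6 and 15.7 CPM. Its genes divided, however. In LN-LEC against D-LEC 2 of 7 were called higher and 1 lower, beside 24.1% and 21.7% of all genes. Epcam and Cdh1 were higher at 4.87 and 4.33 on the log2 scale, and Krt7 lower at −3.34. In LN-BEC against D-LEC 3 were called higher and 0 lower, beside 25.6% and 22.5% of all genes. Epcam and Cdh1 were at 6.36 and 5.84 there. The part of epithelial RNA in the levels was not tested.

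Of the other 17 Sox genes, 14 were tested and 8 reached a mean of 100, Sox18 included, while 4 never exceeded 3 counts. In LN-BEC against LN-LEC 5 were called higher and 1 lower, in LN-BEC against D-LEC 5 higher and 1 lower, and in LN-LEC against D-LEC 1 higher and 5 lower, with median log2 fold changes of 1.38, 1.29 and −0.49. Those called were 42.9% of the tested genes of the list in each comparison, beside 38.2%, 48.1% and 45.8% of all genes. Where genes at the floor of 3 counts were set to their bound, the first and second medians were 1.17 and 0.47. Sox11, a SoxC gene, was at 1072, 1218 and 675 in LN-BEC, 33.7, 36.8, 27.1 and 21.4 in LN-LEC, and 216, 134 and 89.2 in D-LEC. It was higher in LN-BEC than LN-LEC by 5.08 on the log2 scale (SE 0.33, edgeR adjusted p = 3.7e-07), and in D-LEC than in LN-LEC, where LN-LEC minus D-LEC was −2.30 (SE 0.34, edgeR adjusted p = 2.3e-04). Sox13 was highest in LN-BEC too, at 1254 to 1365 against 224 to 348 in LN-LEC and 385 to 483 in D-LEC. Sox12 was at 101 to 149.6 in LN-BEC and 36.2 to 78.2 in LEC, and Sox5 at 89.2 to 126 in D-LEC and 32.9 to 67.4 in the node populations. Sox4 was at 592 to 925 throughout, with LN-BEC minus LN-LEC at −0.34 (SE 0.12, edgeR adjusted p = 0.042), or −0.26 (adjusted p = 0.19) without LN-BEC replicate 3 and LN-LEC replicate 4. Sox9 and Sox10, of chondrocytes, epithelia and neural crest, were again highest of their populations in LN-BEC replicate 3 (2167 and 363) and LN-LEC replicate 4 (879 and 155). Sox9 was called in 0 of the 3 comparisons by edgeR, with log2 fold changes of 0.58, 0.01 and −0.57 (SE 0.78, 0.83 and 0.78). Without LN-BEC replicate 3 and LN-LEC replicate 4 they were −0.73, −1.55 and −0.82 (edgeR adjusted p = 0.34, 0.051 and 0.18), so that the direction between LN-BEC and LN-LEC turned.

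**Figure D5:**
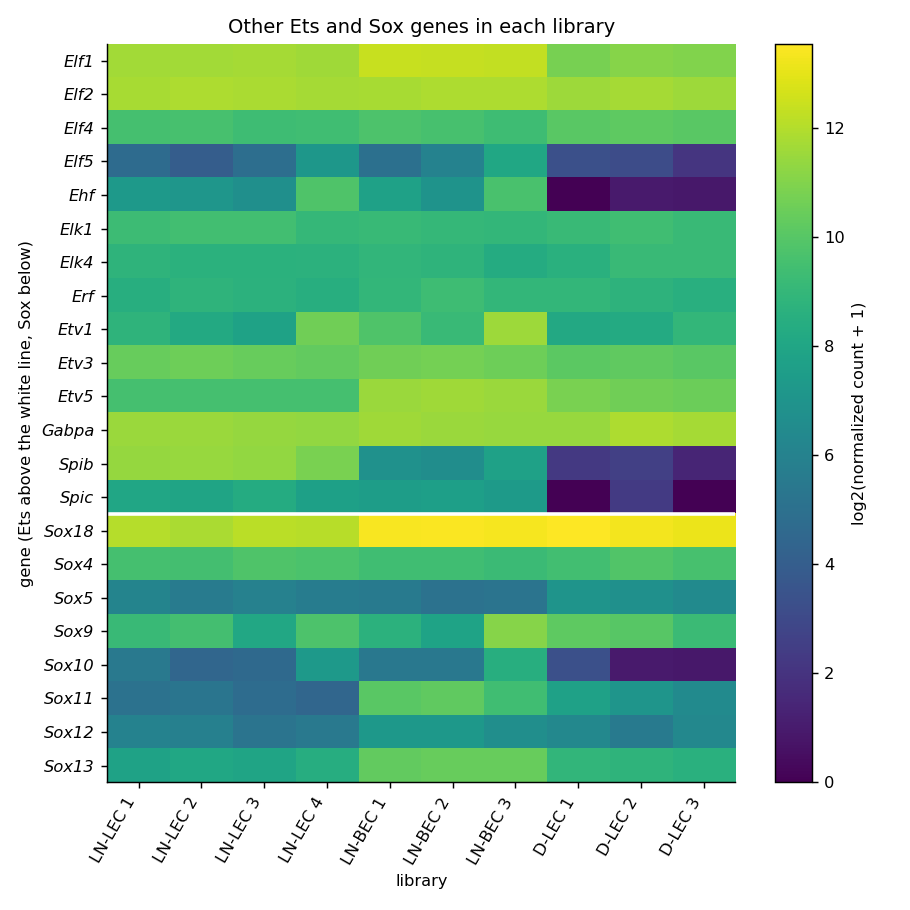
Level of the 14 other Ets genes (above the white line) and 8 other Sox genes (below) that reached a mean normalized count of 100, as log2 of the normalized count plus 1 (colour), in each library (columns). Spib is bright in the 4 LN-LEC columns, Sox11 in the 3 LN-BEC columns, and Ehf, Elf5, Etv1 and Sox10 are brighter in LN-LEC 4 and LN-BEC 3 than in the rest of their populations.

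Endothelial genes known to carry Ets sites did not move as a block. Of the 20 genes, in LN-BEC against LN-LEC 12 were called higher and 5 lower, in LN-BEC against D-LEC 12 higher and 6 lower, and in LN-LEC against D-LEC 5 higher and 7 lower, with median log2 fold changes of 0.69, 0.48 and −0.13. Those called were 85%, 90% and 60% of the list, beside 38.2%, 48.1% and 45.8% of all genes. Flt1 and Vwf, markers of BEC, were the highest in LN-BEC, at 6.19 and 5.59 over LN-LEC on the log2 scale. Flt4, the VEGF-C receptor, and Cldn5, a tight junction protein, were lower in LN-BEC than LN-LEC, at −2.82 and −2.004. In LN-LEC against D-LEC, Clec14a was higher at 2.82, and Flt4 and Tie1 lower at −2.31 and −0.97. Cdh5, the junctional cadherin of endothelium, was among the 3 genes nearest to Fli1 in pattern.

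Arterial genes also divided. All 14 were called in LN-BEC against LN-LEC, 9 higher and 5 lower. In LN-BEC against D-LEC 6 were higher and 7 lower, in LN-LEC against D-LEC 4 higher and 7 lower, and the medians were 1.27, −0.08 and −0.30. The shares called were 100%, 92.9% and 78.6%, beside 38.2%, 48.1% and 45.8% of all genes. Gja5, a connexin of arterial endothelium, was at 1016 in LN-BEC, 14.1 in LN-LEC and at most 1 count in each D-LEC library, so that LN-BEC were at least 269-fold above D-LEC against a floor of 3 counts per library. In LN-LEC it was at 35.8 in replicate 4 and 6.35 to 7.92 in the others, with a mean of 6.91 without replicate 4. Bmx and Unc5b were lower in LN-BEC than LN-LEC, at −2.12 and −1.18 on the log2 scale. Hey1 and Dll4, a Notch target and a Notch ligand, were higher in D-LEC than LN-LEC, with LN-LEC minus D-LEC at −4.50 and −1.50. Venous and high endothelial venule (HEV) genes, 11 in all, were called higher in LN-BEC for 8 and lower for 1 against LN-LEC, 8 and 3 against D-LEC, and 6 higher and 3 lower in LN-LEC against D-LEC, with medians of 2.84, 5.60 and 1.81. The shares called were 81.8%, 100% and 81.8%, beside 38.2%, 48.1% and 45.8% of all genes. Chst4, which makes L-selectin ligands, and Aplnr were 6.71 and 6.55 higher in LN-BEC than LN-LEC on the log2 scale. Nr2f2, a factor of venous and lymphatic identity, was lower there at −2.36. Madcam1 and Glycam1 were at means of 8377 and 2.43e+06 in LN-BEC, 3547 and 72736 in LN-LEC, and 3.10 and 343 in D-LEC. RNA of these genes was thus counted in LN-LEC as well. LN-BEC exceeded LN-LEC by 1.23 for Madcam1 and 5.05 for Glycam1 on the log2 scale. Chst4 was at a mean of 36.1 in LN-LEC against 4067 in LN-BEC. The part of RNA from BEC in these LN-LEC levels was not tested. LN-BEC held RNA of both arterial and HEV genes, and which vessels carried Sox17 was not measured.

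Partner transcription factors, 18 in all, were called higher in LN-BEC for 10 and lower for 7 against LN-LEC, 4 and 10 against D-LEC, and 1 higher and 10 lower in LN-LEC against D-LEC, with medians of 0.34, −0.38 and −0.60. The shares called were 94.4%, 77.8% and 61.1%, beside 38.2%, 48.1% and 45.8% of all genes. Mkl2, a co-activator of serum response factor, and Mef2c were higher in LN-BEC than LN-LEC by 2.40 and 2.10 on the log2 scale. Foxc2, which acts in lymphatic valves, and Lyl1 were lower there at −3.66 and −2.46. Klf4 and Klf2, which respond to flow, were higher in D-LEC than LN-LEC, with LN-LEC minus D-LEC at −2.20 and −1.90.

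ERK acts on Ets1, Ets2 and Elk3, and its feedback and response genes were read from a list of 10. Egr1 is in this list and also among the immediate early genes below, so the lists share a gene. In LN-BEC against LN-LEC 6 were called higher and 0 lower, in LN-BEC against D-LEC 3 higher and 2 lower, and in LN-LEC against D-LEC 0 higher and 6 lower, with medians of 1.66, 0.38 and −1.19. The shares called were 60%, 50% and 60%, beside 38.2%, 48.1% and 45.8% of all genes. With genes at the floor set to their bound the medians were 1.32, −0.10 and −1.66. Spry4, an inhibitor of receptor signalling to ERK, was at means of 83.5 for LN-LEC, 1492 for LN-BEC and 775 for D-LEC, and was higher in LN-BEC than LN-LEC by 4.13 on the log2 scale (SE 0.17, edgeR adjusted p = 4.5e-10). Spred1 was higher in LN-BEC by 2.11 over LN-LEC and 1.13 over D-LEC. Dusp6, a phosphatase of ERK, was higher in D-LEC than LN-BEC, with LN-BEC minus D-LEC at −0.43 (SE 0.14, edgeR adjusted p = 0.021). Immediate early genes, several of them targets of ternary complex factors, were called higher in LN-BEC for 7 of 12 and lower for 0 against LN-LEC, 1 and 4 against D-LEC, and 1 higher and 11 lower in LN-LEC against D-LEC, with medians of 1.54, −1.13 and −2.35. The shares called were 58.3%, 41.7% and 100%, beside 38.2%, 48.1% and 45.8% of all genes. These counts depended on LN-BEC replicate 3 and LN-LEC replicate 4, and without both 12 of the 12 were called higher and 0 lower against LN-LEC, and 2 higher and 10 lower against D-LEC, by edgeR. Egr1 was higher in LN-BEC than LN-LEC by 1.94 (SE 0.43, edgeR adjusted p = 0.0069), and Atf3 was lower in LN-LEC than D-LEC at −3.89 (SE 0.49, edgeR adjusted p = 2.7e-04).

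The genes most like each of the 8 in pattern were found among 10221 genes by the root-mean-square difference of centred log2 CPM over the 10 libraries, as a description. Nearest to Sox17 were Jam2 (0.308), Flt1 (0.359) and Entpd1 (0.442), and Jam2, a junctional adhesion molecule, was at means of 315, 19834 and 149.7 in LN-LEC, then LN-BEC, then D-LEC. Nearest to Sox7 were N4bp1 (0.111), Ccdc85b (0.113) and Dgkd (0.114), and Fli1 stood 114th and Ets2 149th from it. Nearest to Ets2 were Oaz2-ps (0.0970), whose symbol marks a pseudogene and whose reads may be split with its parent gene, Ahr (0.106) and Akap2 (0.118). Fli1 was nearest to Cdh5 (0.143), Ppdpf (0.145) and Zfp462 (0.147). Ets1 was nearest to Nlk (0.0516), Cpsf2 (0.0552) and Fem1b (0.0592), and Erg to Mdm4 (0.0953), Zfp677 (0.0997) and Eif2ak2 (0.107). Elk3 had the nearest genes Smurf2 (0.181), Peg3 (0.186) and Aprt (0.192), and Etv6 had Rbbp8, Agpat5 and Slc16a9. Erg's neighbour on the chromosome, Ets2, stood 7407th of the 10221 from it, whereas Etv6 stood 187th, and from Fli1 its neighbour Ets1 stood 1453rd.

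Markers of other cell types moved between the populations as well. Skeletal muscle genes summed to 40.2 to 61.8 CPM in D-LEC and to 1.02 to 3.14 CPM in the node populations, where 3 or 4 of 8 were at 3 counts or fewer. Mesothelial genes summed to 19.3 to 61.4 CPM in D-LEC and 0.697 to 4.06 CPM in the node. Fibroblast and mural genes summed to 204 to 362 CPM in the node and 70.4 to 189 CPM in D-LEC, and erythroid genes to 0.728 to 1.98 CPM throughout. The erythroid sum was Alas2 alone, since the other 4 genes of that list (Hbb-b1, Hbb-b2, Hba-a1 and Hba-a2) were listed at 0 in every library. Their part in the differences between lymph node and diaphragm was not tested, and tissue and cell source cannot be told apart in this design.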

How the data were processed

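RNA from 10 sorted endothelial libraries was analysed. The authors aligned read pairs to mm9 with STAR and counted fragments per gene symbol with featureCounts 1.4.4, ignoring strand; the deposited counts are raw, and the authors deposited the exon length of each gene in another column. Here, 3828 predicted, RIKEN, LOC and clone symbols were left out, and genes with a mean normalized count (DESeq2 size factors) of at least 1 in a population were tested. edgeR 4.0.16 in R 4.3.3 fitted all 10 libraries (TMM, robust quasi-likelihood), and a gene was called at a Benjamini-Hochberg adjusted p under 0.05 over all tested genes. The SE was the size of the log2 fold change over √F. FPKM used the deposited lengths. DESeq2 1.42.0, other filters, other scaling and left-out libraries were alternatives, and the fit was tested on simulated data. The labels name no batch or pairing, though library numbers in the titles set LN-BEC replicate 3 and LN-LEC replicate 4 apart. Precision rests on the spread between libraries, and floors of 3 counts cover counting error only.

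The 8 genes and all gene lists were chosen with earlier results of these data known. Genes named were these 8, Sox18, other Ets and Sox genes with a mean of at least 100, of each further list up to 2 called genes with non-overlapping libraries in each direction, the 3 nearest genes in pattern, and marker genes. Cdk17, Cd2, Cd79b, Ier3 and the epithelial list were added after the values were seen. Promoters are RefSeq windows of GRCm38.p6, found for 4 of the 8 genes. Sequences were read with Python 3.11.15.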

Additional observations from a re-analysis of the deposited data

Results flagged for a closer look

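The normalized count of Ets2 in LN-LEC replicate 4 was 24971, below 28015 to 28372 in the other LN-LEC libraries, and its gap to the nearest library was 0.895 of the whole range, over Dixon's critical value for 4 libraries. It was 1 of 28 quantities examined in this way in LN-LEC, and chance alone is expected to flag about 1 in 20. Without that library the Ets2 difference between LN-BEC and LN-LEC kept its call.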

How the results depend on the processing

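Of 456 recomputed log2 fold changes of the 8 genes over 19 settings, 453 kept their side of the threshold, with the same direction where called. The exceptions are the Elk3 difference between LN-BEC and LN-LEC, called without LN-LEC replicate 4 (0.43) and without that library and LN-BEC replicate 3 (0.57), and the Ets1 difference between LN-BEC and D-LEC, not called without D-LEC replicate 3 (0.21). Uncalled differences could change sign, as LN-LEC minus D-LEC ran from −0.03 to 0.17 for Fli1 and from −0.08 to 0.02 for Sox7. Counts of calls among all genes and among the 8 genes stayed within 1.5 times over these settings. Without LN-BEC replicate 3 and LN-LEC replicate 4 so did the counts of the further gene lists, marker lists aside, except that immediate early genes called rose from 7 to 12 in LN-BEC against LN-LEC and from 5 to 12 in LN-BEC against D-LEC. Shares moved when levels were not divided by gene length. In LN-LEC, then LN-BEC, then D-LEC they were then 46.7%, 34.0% and 26.8% for Sox7, 0.493%, 17.0% and 0.131% for Sox17, 52.8%, 49.1% and 73.1% for Sox18, 13.8%, 7.44% and 8.40% for Ets1, 2.01%, 0.971% and 0.766% for Erg, 12.8%, 11.1% and 9.38% for Fli1, and 9.80%, 6.26% and 3.71% for Etv6. In LN-BEC and D-LEC they were 58.9% and 40.1% for Ets2 and 15.3% and 37.7% for Elk3. No paired analysis was possible because the labels tie no library of one population to one of another. The titles give LN-BEC replicate 3 and LN-LEC replicate 4 the last 2 library numbers without calling them a batch, and with a term for them, added after the values were seen, 6231, 7581 and 7316 genes were called in the 3 comparisons and each of the 8 genes kept its call or its lack of one. Sox17 in D-LEC rests on 12 to 26 counts a library.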
